A study of Mus musculus with 6 samples.

Results

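Oxidative phosphorylation genes are the nuclear genes for the 5 protein complexes of the inner mitochondrial membrane that make ATP from the oxidation of NADH and succinate. They were chosen by gene symbol alone, as all genes with a single symbol in the array annotation that begins with Ndufa, Ndufb, Ndufc, Ndufs, Ndufv, Uqcr, Cox4 to Cox8 or Atp5, or that is Sdha, Sdhb, Sdhc or Sdhd. The rule found 90 of 18194 named genes, 44 for complex I, 4 for complex II, 8 for complex III, 17 for complex IV and 17 for complex V. Values were log2 expression from Affymetrix arrays, and 89 of the 90 reached a log2 value of 4 on at least 3 arrays and were tested. The exception was the complex IV gene Cox7b2, at 2.28 to 2.73 on all 6 arrays. Ndufb4 lay just inside the limit, with values of 3.45 to 4.66.

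The study compared mouse sciatic nerves whose Schwann cells, the glia of peripheral nerves, lacked the histone deacetylases HDAC1 and HDAC2 with nerves of littermates. Nerves were taken on postnatal day 2 from mice of mixed strain, and the perineurium was removed. The mutants (dKO, 3 arrays) carried DhhCre, a Cre recombinase under the desert hedgehog gene that is active in the Schwann cell lineage, and lacked HDAC1 and HDAC2 there, while the control littermates (3 arrays) were negative for DhhCre. The labels do not say which other alleles the controls carried, nor the number of animals behind an RNA preparation. All p-values therefore rest on the spread among the 3 arrays of a group, which may be partly technical. RNA came from the whole nerve, in which fewer cells of a type and less RNA per cell cannot be told apart. Cells outside the lineage with Cre retain both genes.

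Complex I passes electrons from NADH to ubiquinone, complex II (succinate dehydrogenase) does so from succinate, complex III passes them on to cytochrome c, and complex IV (cytochrome c oxidase) to oxygen. Complexes I, III and IV pump protons, and complex V (ATP synthase) uses the returning protons to make ATP. Most subunits are made from nuclear genes that are active in nearly all cells, and a few complex IV subunits have alternative isoforms restricted to tissues such as muscle, lung or testis. Myelinating Schwann cells are known to depend on mitochondrial respiration for their long-term support of axons.

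The targeted genes were lower on every dKO array. Hdac1 was at 10.36 to 10.48 on control arrays and at 8.75 to 8.96 on dKO arrays (log2 change -1.55, SE 0.13, limma adjusted p = 0.000271). Hdac2 was at 12.33 to 12.34 and at 10.81 to 11.22 (-1.26, SE 0.15, adjusted p = 0.00103) on the brightest of its 3 probe sets. With probe sets averaged the Hdac2 change was smaller, at -0.71 (limma adjusted p = 0.00431). Listed Schwann lineage genes had a mean level of 10.42 to 10.55 on control arrays and of 9.97 to 10.33 on dKO arrays. They moved both ways, with 3 of 7 called lower (Pmp22, Erbb3 and S100b) and 2 higher (Fabp7 and Ngfr). Together 71.4% were called, against 22.0% of all genes tested, and their median log2 change was -0.55. The array dKO 3 stood apart. Its estimated array weight was 0.341, against 0.600 to 1.81 for the other 5, and it held the highest of the 6 values for 31.0% of all genes tested. Over the oxidative phosphorylation genes the share was 59.6% (53 of 89), so values without dKO 3 are given for each complex and for a number of genes.

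Among the oxidative phosphorylation genes, a single gene passed the test between dKO and control nerves. Of the 89 genes tested, 1 was called higher and 0 lower at an adjusted p under 0.05 (1.12%), whereas 22.0% of all 14550 genes were called, 12.6% higher and 9.38% lower. Of all calls 57.3% were higher, and 49.4% after the arrays had been set to a common median of the tested genes (centring). At an unadjusted p under 0.05 the count was 8 of 89 (8.99%), against 34.3% of all genes. The gene that rose was Cox6b2, which encodes an isoform of a complex IV subunit known from testis. The median log2 change was 0.07 over the 89 genes (0.02 without dKO 3) and 0.01 over all genes. The interquartile range of the changes was -0.02 to 0.20, against -0.25 to 0.32 over all genes. The median turned to -0.01 with centring, which moved the median of all genes to -0.07. By complex, the centred medians were -0.01 for complex I, 0.03 for II, 0.10 for III, -0.04 for IV and -0.03 for V, against 0.07, 0.11, 0.18, 0.03 and 0.05 without centring. Without dKO 3 the uncentred medians were below 0.01 in size for complex I, -0.01 for II, 0.08 for III, -0.06 for IV and 0.03 for V, so those of complexes II and IV turned sign. A change of less than 0.5 in either direction was fitted for 86 of the 89 genes (96.6%), compared with 71.4% of all genes.

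A call that misses the threshold does not show that a gene was equal in both groups, so the 95% confidence intervals were read as well. The interval lay wholly between -1 and 1, that is within a 2-fold change, for 87 of the 89 genes (97.8%) and for 73.6% of all genes. Outside it were Cox6b2 and the ATP synthase gene Atp5b, whose interval was -1.03 to 0.23. The median SE was 0.16 for these genes and 0.17 for all genes. The genes were bright on the arrays, with a control mean of at least 12 for 30.3% of them against 2.75% of all genes. The highest value of any of them was 13.80, and the highest of any tested gene was 14.34. Whether bright probe sets understated changes was not tested. Of all genes with a value of at least 6 on at least 3 arrays, 28.3% were called.

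**Figure D1:**
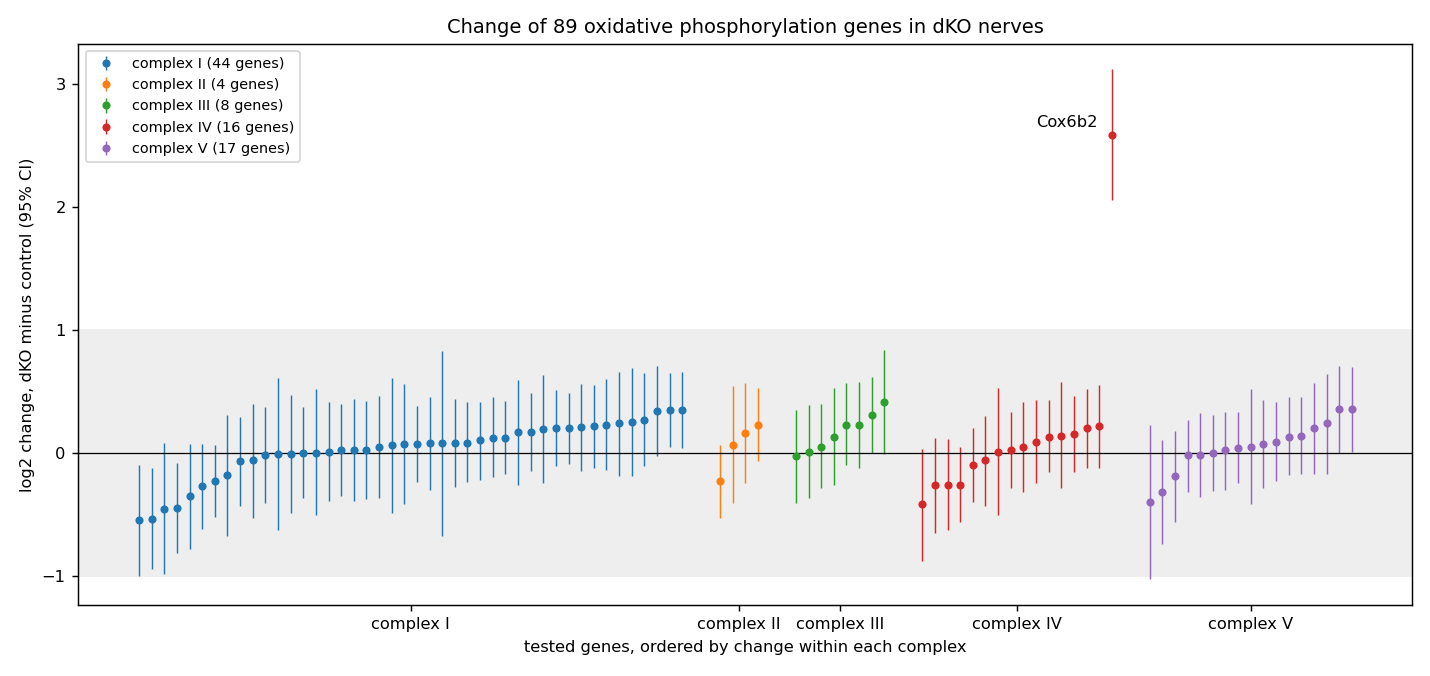
Log2 change (dKO minus control) of each tested oxidative phosphorylation gene, with its 95% confidence interval from limma, ordered by change within complexes I to V. The grey band spans a 2-fold change in either direction. Cox6b2, at 2.59, is the gene that lies above the band, and the interval of Atp5b in complex V reaches -1.03.

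Cox6b2 rose about 6-fold. Its log2 values were 6.25, 6.79 and 6.98 on control arrays and 8.94, 9.51 and 9.33 on dKO arrays. All 3 dKO values exceeded all control values by nearly 2 log2 units or more. The change was 2.59 (SE 0.23, 95% interval 2.06 to 3.12, adjusted p = 0.000294), a 6.01-fold difference, and 2.55 without dKO 3 (adjusted p = 0.00221). Cox6b2 was measured by 1 probe set. Its widely expressed counterpart Cox6b1, which encodes the same subunit of complex IV on the side of the intermembrane space, was at 12.97, 12.77 and 12.78 on control arrays and at 12.66, 12.89 and 13.11 on dKO arrays. The Cox6b1 groups overlapped (log2 change 0.05, SE 0.16, 95% interval -0.32 to 0.41, adjusted p = 0.863).

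Marker lists of some other cell types had higher mean levels on the dKO arrays. The counts of calls stand against 12.6% of all genes called higher and 9.38% lower. The mean level of 9 pericyte markers was 7.80 to 7.84 on control arrays and 8.29 to 8.51 on dKO arrays (5 called higher, 0 lower, with 4 higher whichever array was left out and 1 lower without dKO 3). That of 10 fibroblast and perineurial markers was 10.50 to 10.82 and 11.05 to 11.06 (4 higher and 1 lower, with 1 higher without control 2 or dKO 2, and the lower call kept only without control 1). Called higher were Cldn1 (1.70), Dcn (0.86), Pdgfra (0.78) and Lum (0.76), and lower Itgb4 (-0.62). The uncalled fibroblast and perineurial markers had log2 changes from -0.31 (Tjp1) to 0.46 (Slc2a1). For 10 neuron and axon markers the mean level was 6.53 to 6.80 and 7.07 to 7.16 (2 higher, 1 lower). Map2 (2.03) and Snap25 (1.45) were called higher and Syp (-0.98) lower. The uncalled markers of this list had changes from -0.05 (Tubb3) to 0.54 (Nefl). Of 5 tested adipocyte markers, 1 was called higher (Fabp4, by 2.30) and 0 lower. The other 4 had log2 changes of -0.28 (Cidec), 0.06 (Pparg), 0.07 (Ucp1) and 0.50 (Lipe) that did not pass the test, and Adipoq, Cidea and Lep were under the limit. The ranges of the endothelial markers (7.13 to 7.52 and 7.33 to 7.82) and of the erythroid markers (7.30 to 8.06 and 7.11 to 8.77) overlapped. Those of 6 macrophage markers (6.96 to 7.29 and 7.31 to 8.12) did not. Of 8 endothelial markers, 0 were called higher and 1 lower (Vwf, by -1.52), and 6 had changes above 0. Of the macrophage markers, 1 was called higher (Aif1, by 1.06) and 0 lower. With 1 array left out, 0 to 2 macrophage markers were higher. Of 3 erythroid markers, 0 were called. The part of these cell types in the rise of Cox6b2 was not tested.

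Cox6b2 lies on chromosome 7 at chr7:4751792-4753094 of the mouse assembly GRCm38.p6, on the minus strand, and its start is 131 bases from the next annotated gene, Fam71e2. None of the 5 tested genes around it passed the test. Kmt5c, a histone methyltransferase gene on its other side, differed by a log2 value of 0.22 (SE 0.16, adjusted p = 0.373), Il11, a cytokine gene, of -0.07 (SE 0.14, adjusted p = 0.768), and Tmem238 of -0.07 (SE 0.22, adjusted p = 0.848). Brsk1, a neuronal kinase gene, was at 0.09 (SE 0.21, adjusted p = 0.788), and Tmem150b was below 0.01 in size (SE 0.20). These neighbours were looked at after the Cox6b2 values had been seen.

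Sequence before the start of Cox6b2 is shown beside that of Cox6b1, because these are counterparts with different responses, and of Sdhb, a complex II gene with a match to the nuclear respiratory factor NRF1, a known regulator of this gene set. Each stretch is the 131 bases before the annotated start, 5′ to 3′ on the gene's strand, from RefSeq (GRCm38.p6). They lie at chr7:4753095-4753225 (minus strand), chr7:30626115-30626245 (minus strand) and chr4:140961140-140961270 (plus strand). Capitals mark matches to any of 6 motifs searched on both strands.
Cox6b2: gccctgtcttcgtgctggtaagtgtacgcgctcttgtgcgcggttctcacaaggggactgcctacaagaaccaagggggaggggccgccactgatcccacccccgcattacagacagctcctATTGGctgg
Cox6b1: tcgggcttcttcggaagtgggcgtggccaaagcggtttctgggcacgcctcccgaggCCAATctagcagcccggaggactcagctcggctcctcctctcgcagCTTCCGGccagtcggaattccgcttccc
Sdhb: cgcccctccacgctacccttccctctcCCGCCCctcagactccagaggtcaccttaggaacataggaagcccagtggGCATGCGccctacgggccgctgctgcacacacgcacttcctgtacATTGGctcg
In the Cox6b2 stretch the capitals are a CCAAT box on the opposite strand. In Cox6b1 they are a CCAAT box and an ETS motif on the opposite strand, and in Sdhb a GC box on the opposite strand, the NRF1 core and a CCAAT box on the opposite strand.

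The motifs were counted in windows of 300 bases, 250 before and 50 after each start, which RefSeq gave for 74 of the 90 genes in 79 windows. The NRF1 core GCATGCG was in 12 of these 79 windows (15.2%), against 5.68% of the 14707 windows of tested genes and 3.58% of all 32851 windows. The ETS motif CCGGAAG, the core bound by the nuclear respiratory factor GABPA, was in 24.1%, against 15.1% and 8.86%. The YY1 motif AAGATGG was in 13.9% (6.57% and 6.34%), and AAGGTCA, bound by estrogen-related receptors, in 10.1% (3.45% and 4.72%). The GC box GGGCGG was in 45.6% (58.7% and 35.7%) and CCAAT in 41.8% (37.1% and 37.4%). Cox6b2 had a GC box and CCAAT in its window and none of the other 4 motifs. This GC box is not within the 131 bases shown. The Cox6b2 window also takes in bases after the start and, beyond the 131 bases, part of Fam71e2. It held 10 CpG dinucleotides, against 17 for Cox6b1. The median was 20 (range 2 to 43) over the windows of the oxidative phosphorylation genes and 19 over windows of tested genes. A match is a run of letters in this window and not a measured binding site.

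In complex I, 0 of 44 genes were called (22.0% of all genes), and the median log2 change was 0.07, falling to below 0.01 in size without dKO 3. Changes ran from -0.55 to 0.35, with 30 genes above 0 and 14 below. All 44 intervals lay within a 2-fold change. The array dKO 3 held the highest value for 29 of the 44. The median of the values relative to the control mean was -0.03 on dKO 1, 0.29 on dKO 3 and below 0.01 in size on dKO 2.

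The core subunits of complex I carry the flavin, the iron-sulfur clusters and the electron path. Of the 6 nuclear core genes measured here the median change was -0.03, and -0.13 without dKO 3. Ndufs8, an iron-sulfur subunit near the ubiquinone site, was at 11.41, 11.45 and 11.37 on control arrays and at 10.77, 10.58 and 11.51 on dKO arrays. Its values on dKO 1 and dKO 2 were thus below, and that of dKO 3 above, all controls (log2 change -0.46, SE 0.23, adjusted p = 0.209). Without dKO 3 the change was -0.73 and passed the test (adjusted p = 0.0117). All 6 Ndufs8 probe sets were lower in dKO, by -0.43 to -0.79. The probe set with the largest of these changes was at 9.06, 8.99 and 9.09 on control arrays and at 8.23, 8.19 and 8.34 on dKO arrays, with no overlap (log2 change -0.79, SE 0.14, limma adjusted p = 0.00522 over all probe sets), and 1 other was called (adjusted p = 0.0465).

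Ndufv2, an iron-sulfur subunit of the NADH-oxidising tip of complex I, was at 12.15, 11.90 and 11.92 on control arrays and at 11.62, 11.33 and 11.96 on dKO arrays (log2 change -0.35, SE 0.19, adjusted p = 0.221, and -0.52 without dKO 3, adjusted p = 0.0647). The groups overlapped through dKO 3 alone. On 1 of its 3 probe sets they did not overlap, with 11.28, 11.22 and 11.29 against 10.64, 10.63 and 10.82 (log2 change -0.57, SE 0.14, limma adjusted p = 0.0237 over all probe sets). The other core genes had log2 changes of -0.07 for Ndufs1, which encodes the largest iron-sulfur subunit, 0.08 for Ndufs3, below 0.01 in size for Ndufs7 and 0.19 for Ndufv1, the flavin and NADH binding subunit. Without dKO 3 these were 0.03 for Ndufs1, -0.01 for Ndufs3, -0.24 for Ndufs7 and -0.01 for Ndufv1. Their groups overlapped. On the other Ndufs7 probe set they did not, with 9.32, 9.27 and 9.29 against 8.76, 8.96 and 9.16. Its change was not called (-0.33, SE 0.15, limma adjusted p = 0.182 over all probe sets). Ndufs8 and Ndufv2 are described here after their values had been seen.

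The 30 accessory genes of complex I had a median change of 0.07. Ndufb7, measured by the brightest probe set of complex I, was at 13.52, 13.37 and 13.23 on control arrays and at 13.45, 13.44 and 13.60 on dKO arrays (log2 change 0.12, SE 0.14, adjusted p = 0.579). Ndufa1, a membrane arm subunit, was at 11.95, 11.91 and 12.04 on control arrays and at 12.25, 12.30 and 12.40 on dKO arrays. Its dKO values were all higher (log2 change 0.35, SE 0.13), and the change did not pass the test (adjusted p = 0.0953). Ndufb1 was at 6.19, 5.58 and 5.54 on control arrays and lower, at 5.34, 5.12 and 5.21, on dKO arrays (log2 change -0.55, SE 0.20, adjusted p = 0.0842). Ndufs4, an accessory subunit needed for a stable complex, was at 11.41, 11.37 and 11.46 on control arrays and at 11.16, 11.23 and 11.15 on dKO arrays (log2 change -0.23, SE 0.13, adjusted p = 0.234). Its groups did not overlap either, with a difference smaller than that of Ndufb1. Ndufa4 is listed here by its symbol, although its protein is now counted with complex IV. Its log2 value differed by 0.17 (SE 0.14, adjusted p = 0.427), with 12.25, 12.47 and 12.47 on control arrays and 12.49, 12.56 and 12.65 on dKO arrays. Its paralog Ndufa4l2, known as a hypoxia-induced gene, was at 5.18, 5.41 and 5.50 and at 4.92, 5.47 and 5.67 (log2 change -0.01, SE 0.21, 95% interval -0.49 to 0.47). The Ndufa4 groups were just separate, and the Ndufa4l2 groups overlapped.

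The rule also took in 8 Ndufaf genes, which encode assembly factors and no subunits of complex I. Of these, 3 had dKO values all above control, 2 had them all below (40.9% of all genes tested had groups that did not overlap), and 0 passed the test. Ndufaf3 was at 7.32, 7.33 and 7.33 on control arrays and at 6.41, 6.99 and 6.96 on dKO arrays (log2 change -0.54, SE 0.18, adjusted p = 0.0690). It was lower on each dKO array, most on dKO 1. Ndufaf7, a methyltransferase that acts on a core subunit, was at 8.10, 8.31 and 8.38 and at 7.61, 8.03 and 7.79 (log2 change -0.45, SE 0.16, adjusted p = 0.0825). Ndufaf2 went the other way, from 10.77, 10.58 and 10.54 to 10.97, 11.02 and 10.94 (log2 change 0.35, SE 0.13, adjusted p = 0.106). Without the Ndufaf genes, 1 of 81 tested genes was called (1.23%).

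**Figure D2:**
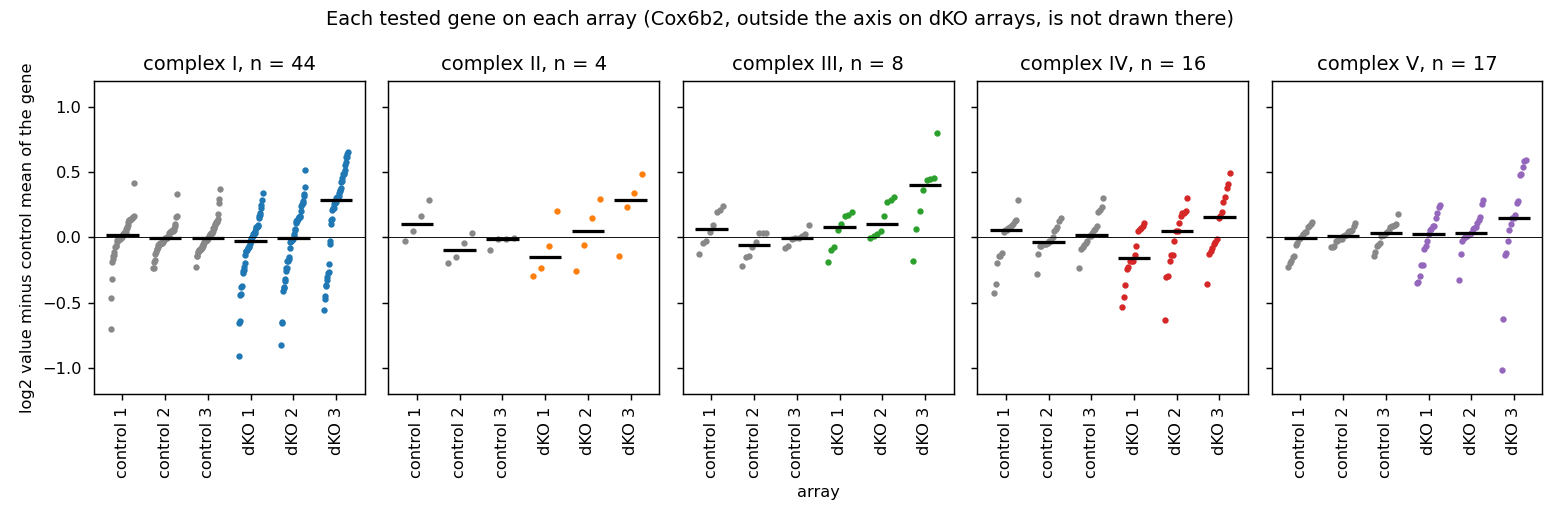
Log2 value of each tested gene on each array, minus the control mean of that gene, by complex, with the arrays on the horizontal axis. Cox6b2 lies outside the vertical axis on the dKO arrays and is not drawn there. Points are genes and black lines are medians over the genes of the complex, 0.29 for complex I and 0.40 for complex III on dKO 3. Medians on dKO 1 lie between -0.16 and 0.08.

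Complex II is the smallest and has all of its subunits made from nuclear genes. Sdha, the flavoprotein that oxidises succinate, was at 12.03, 12.09 and 12.05 on control arrays and at 11.76, 11.80 and 11.91 on dKO arrays. All dKO values were lower, by a log2 change of -0.23 (SE 0.13, adjusted p = 0.240). Sdhd, a membrane anchor, was at 11.11, 11.02 and 11.05 on control arrays and at 11.26, 11.21 and 11.40, all higher, on dKO arrays (log2 change 0.23, SE 0.13, adjusted p = 0.258). The iron-sulfur subunit Sdhb was at 9.99, 9.68 and 9.81 on control arrays and at 9.59, 9.77 and 10.31 on dKO arrays (log2 change 0.06, SE 0.20, adjusted p = 0.851, and -0.15 without dKO 3). The anchor Sdhc was at 10.90, 10.42 and 10.52 and at 10.55, 10.91 and 10.85 (log2 change 0.16, SE 0.18, adjusted p = 0.576). The groups overlapped for Sdhb and Sdhc, and 0 of the 4 genes passed the test (22.0% of all genes did). These values are from 1 probe set per gene, and others differed. Of the other Sdha probe sets, the brightest changed by 0.17 (SE 0.15), and Sdha changed by -0.06 with probe sets averaged. The other Sdhd probe set overlapped (0.02, SE 0.21). The other Sdhc probe set was at 9.87, 10.04 and 10.01 and at 10.18, 10.65 and 10.22, with no overlap (0.38, SE 0.17), and was not called.

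Complex III had the highest median change of the 5 complexes, 0.18, and 0.08 without dKO 3. Of its 8 genes, 7 had changes above 0 and 0 were called (22.0% of all genes were), over a range of -0.03 to 0.41. Uqcr10, a small subunit, was at 10.25, 10.17 and 10.20 on control arrays and at 10.37, 10.48 and 11.01 on dKO arrays (log2 change 0.41, SE 0.19, adjusted p = 0.158). This was the largest increase after Cox6b2, and it was 0.22 without dKO 3. Uqcrfs1, the Rieske iron-sulfur protein, was at 9.35, 9.42 and 9.38 and at 9.56, 9.69 and 9.82, with no overlap (log2 change 0.31, SE 0.14, adjusted p = 0.148). Uqcrb, with the brightest probe set of complex III, was at 12.58, 12.17 and 12.41 and at 12.49, 12.38 and 12.45 (log2 change 0.05, SE 0.15, adjusted p = 0.834). The 2 large core proteins, which hold no redox group, had log2 changes of -0.03 (Uqcrc1) and 0.23 (Uqcrc2). Cyc1, the cytochrome c1 subunit, does not match the symbol rule and differed by a log2 value of 0.17 (SE 0.13, adjusted p = 0.409).

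In complex IV the isoforms restricted to some tissues did not follow Cox6b2. Cox4i2, known from lung and from cells that sense oxygen, was at 4.24, 4.39 and 4.67 on control arrays and at 4.25, 4.48 and 4.38 on dKO arrays, near the low-value limit (log2 change -0.06, SE 0.16). Its widely expressed counterpart Cox4i1 was at 12.18, 12.09 and 12.15 and at 12.19, 12.44 and 12.06 (log2 change 0.09, SE 0.15). Both pairs of groups overlapped. Cox8c, an isoform of testis like Cox6b2, was at 6.05, 5.82 and 5.99 on control arrays and at 5.49, 5.65 and 5.94 on dKO arrays (log2 change -0.26, SE 0.16, adjusted p = 0.301). The testis isoform Cox7b2 stayed below the limit of 4 in both groups.

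The isoforms of heart and skeletal muscle all had negative changes that did not pass the test. Cox7a1 was at 6.63, 6.29 and 6.10 on control arrays and at 5.81, 5.71 and 6.24 on dKO arrays (log2 change -0.42, SE 0.20, adjusted p = 0.174). Cox6a2 was at 6.50, 6.12 and 6.60 and at 6.04, 6.11 and 6.28 (log2 change -0.26, SE 0.17, adjusted p = 0.310). Cox8b was at 4.32, 4.22 and 4.20 on control arrays and at 4.01, 4.07 and 3.89 on dKO arrays, which straddle the limit (log2 change -0.26, SE 0.13, adjusted p = 0.210). Only the Cox8b groups of these 3 did not overlap. Skeletal muscle markers were low in all samples. Of 15 listed, 4 were under the limit. The mean level of the other 11 was 4.84 to 5.21 on control arrays and 5.02 to 5.26 on dKO arrays. Of these 11, 1 was called higher and 0 lower (9.09%, against 22.0% of all genes). The gene was Mylpf, a call kept only without dKO 1 when arrays were left out.

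The widely expressed counterparts of these isoforms changed by little. Cox6a1 was at 12.66, 12.54 and 12.61 on control arrays and at 12.67, 12.79 and 12.75 on dKO arrays (log2 change 0.13, SE 0.13, 95% interval -0.16 to 0.43). Cox7a2 was at 12.48, 12.40 and 12.40 and at 12.36, 12.40 and 12.59 (log2 change 0.02, SE 0.13, 95% interval -0.29 to 0.33). Cox8a was at 9.71, 9.53 and 9.51 and at 9.40, 9.69 and 10.08 (log2 change 0.14, SE 0.19, 95% interval -0.29 to 0.58). Cox7a2l, whose protein joins complexes III and IV into supercomplexes, was at 12.69, 12.88 and 12.87 on control arrays and at 12.92, 13.00 and 13.12 on dKO arrays (log2 change 0.20, SE 0.14, adjusted p = 0.345). Its groups were separate by a small margin. Cox5b, with the brightest probe set of complex IV, had a log2 change of -0.10 (SE 0.13), Cox5a of 0.22 (SE 0.15), Cox6c of 0.15 (SE 0.14) and Cox7c of 0.01 (SE 0.23). The Cox7c probe set gave low values, 5.77 to 6.54 over the 6 arrays, against 12.95 to 13.29 for Cox6c. Of the 16 tested genes of complex IV, 1 was called (6.25%, against 22.0% of all genes), and the median change was 0.03, which turned to -0.06 without dKO 3.

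**Figure D3:**
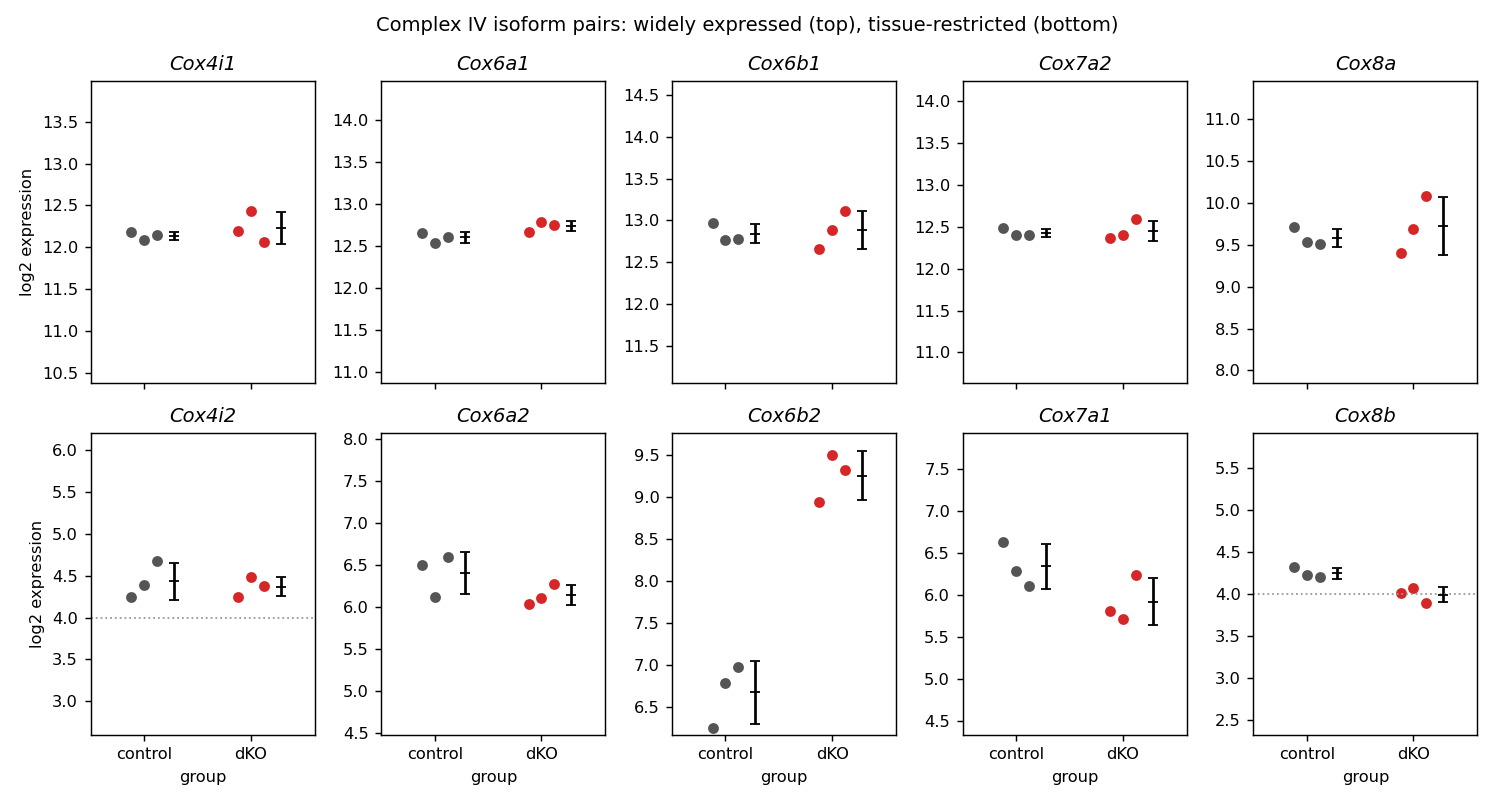
Log2 expression of 5 pairs of complex IV isoforms on the 3 control and 3 dKO arrays, with the widely expressed member on top and the tissue-restricted member below. Points are arrays, bars are mean and SD, every vertical axis spans the same number of log2 units, and dotted lines mark the limit of 4. Cox6b2 is separated between groups, at 6.67 ± 0.38 in control and 9.26 ± 0.29 in dKO nerves (SD, n = 3), while Cox6b1 overlaps.

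Of 17 ATP synthase genes, 0 were called (22.0% of all genes were), and the median log2 change was 0.05, over a range of -0.40 to 0.36. The dKO values were all above control for 3 of them and all below for 0 (17.6% not overlapping, against 40.9% of all genes). Atp5a1 and Atp5b encode the catalytic head's alpha and beta subunits. Atp5a1, with the brightest probe set of complex V, was at 13.78, 13.76 and 13.78 on control arrays and at 13.80, 13.80 and 13.65 on dKO arrays (log2 change -0.02, SE 0.13). Atp5b was at 11.99, 12.27 and 12.40 on control arrays and at 11.92, 12.33 and 11.20 on dKO arrays (log2 change -0.40, SE 0.27, adjusted p = 0.342). Its lowest value was that of dKO 3, and without that array the change was -0.10. On dKO 3 the genes thus moved both ways, with the highest of 6 values for 53 genes and the lowest for 11.

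Atp5g1, Atp5g2 and Atp5g3 encode the same c subunit of the rotor ring, with different import sequences. Atp5g3 was at 12.09, 12.39 and 12.37 on control arrays and at 12.53, 12.57 and 12.82 on dKO arrays, all higher (log2 change 0.36, SE 0.15, adjusted p = 0.144). Atp5g2 was at 9.69, 9.49 and 9.53 and at 9.23, 9.58 and 8.94 (log2 change -0.32, SE 0.18, adjusted p = 0.263, and -0.16 without dKO 3). Atp5g1 was at 9.59, 9.50 and 9.38 and at 9.28, 9.49 and 9.63 (log2 change -0.02, SE 0.15, adjusted p = 0.940). The differences between these 3 genes' changes were not tested. Atp5o, a stalk subunit, was at 10.92, 10.95 and 11.06 and at 11.21, 11.23 and 11.56, all higher (log2 change 0.36, SE 0.15, adjusted p = 0.133).

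The groups did not overlap for 25 of the 89 genes (28.1%), 19 with dKO above and 6 with dKO below control, against 40.9% of all genes tested. Read by single probe sets, 7 of the 172 above the limit were called (4.07%), 5 lower and 2 higher, against 18.8% of all 27718 such probe sets. They belonged to 6 genes. Besides Cox6b2, Ndufs8 (2 probe sets) and Ndufv2, these were Ndufa12, an accessory subunit (0.54, SE 0.14, 1 of 4 probe sets), Atp5g1 (-0.73, SE 0.21) and Uqcrq, a complex III subunit (-0.63, SE 0.18). The called probe sets of Atp5g1 and Uqcrq gave low values, 4.62 to 5.81 and 5.58 to 6.60 over the 6 arrays. The brighter probe sets that stood for these genes in the test were at 9.28 to 9.63 and 9.86 to 10.26. They changed by -0.02 and 0.01. Of the 89 genes, 9 were represented by a probe set whose name ends in _x_at, which marks probes that may bind other transcripts too. Ndufs8 was among these.

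Other genes of mitochondrial respiration were read from lists that hold none of the genes chosen by symbol. The share of all genes called was 22.0%, with 12.6% higher. Of 33 further assembly factors, 3 were called higher and 0 lower (9.09%, median 0.15). They were Sco1, a copper chaperone of complex IV (0.79, SE 0.24), Sdhaf3 of complex II (0.67, SE 0.16) and Atpaf1 of complex V (0.51, SE 0.15). With 1 array left out, 0 were higher without dKO 1, 2 without dKO 2 and 1 without any of the others, and 2 were lower without dKO 3. Of 44 mitochondrial ribosome genes, 3 were called higher and 0 lower (6.82%, median 0.04), with 3 higher without dKO 1, 0 without control 3 and 1 without any of the others, and 1 lower without dKO 3. They were Mrps16 (0.69), Mrps25 (0.54) and Mrpl2 (0.49). The 6 tested carriers and subunits outside the symbol rule, among them Cyc1 and cytochrome c (Cycs, log2 change 0.12, SE 0.13), had 0 calls.

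The citric acid cycle supplies NADH and succinate to complexes I and II. Of 17 of its genes tested, 4 were higher and 0 lower (23.5% called, near the 22.0% of all genes, median 0.16), with 2 higher without dKO 2 and 3 or 4 without any other array. Idh2, the mitochondrial NADP-dependent isocitrate dehydrogenase, was at 9.33, 9.47 and 9.52 on control arrays and at 10.21, 10.61 and 10.57 on dKO arrays (log2 change 1.02, SE 0.16, adjusted p = 0.00281). Suclg2, a subunit of succinate-CoA ligase, rose by 0.92 (SE 0.20, adjusted p = 0.0137), and Fh1, fumarate hydratase, by 0.62 (SE 0.14, adjusted p = 0.0162), a call lost without dKO 2 (adjusted p = 0.0521).

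Among 21 regulators of mitochondrial biogenesis, calls were made both ways, 2 higher and 2 lower (19.0% called, against 22.0% of all genes, median 0.11), and 3 lower without dKO 2. Ppargc1a, the coactivator PGC-1alpha that drives oxidative phosphorylation genes in many tissues, was at 6.67, 7.21 and 6.71 on control arrays and at 7.98, 8.22 and 9.08 on dKO arrays. All dKO values were higher (log2 change 1.56, SE 0.29, adjusted p = 0.00670), and highest on dKO 3, without which the change was 1.23. Its relative Ppargc1b rose by 0.75 (SE 0.15, adjusted p = 0.00880). Ppara, a nuclear receptor of fatty acid oxidation, was at 7.42, 6.43 and 6.50 on control arrays and at 5.32, 5.44 and 4.98 on dKO arrays (log2 change -1.53, SE 0.27, adjusted p = 0.00536). Twnk, the helicase of mitochondrial DNA, was at 9.28, 9.32 and 8.93 and at 7.98, 7.78 and 8.12 (log2 change -1.22, SE 0.17, adjusted p = 0.00165). The DNA-binding factors Nrf1 and Gabpa had log2 changes of -0.58 (SE 0.23) and -0.43 (SE 0.25) that did not pass the test, and of -0.34 and -0.12 without dKO 3. Tfam, which packages mitochondrial DNA, had a log2 change of 0.15 (SE 0.14).

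**Figure D4:**
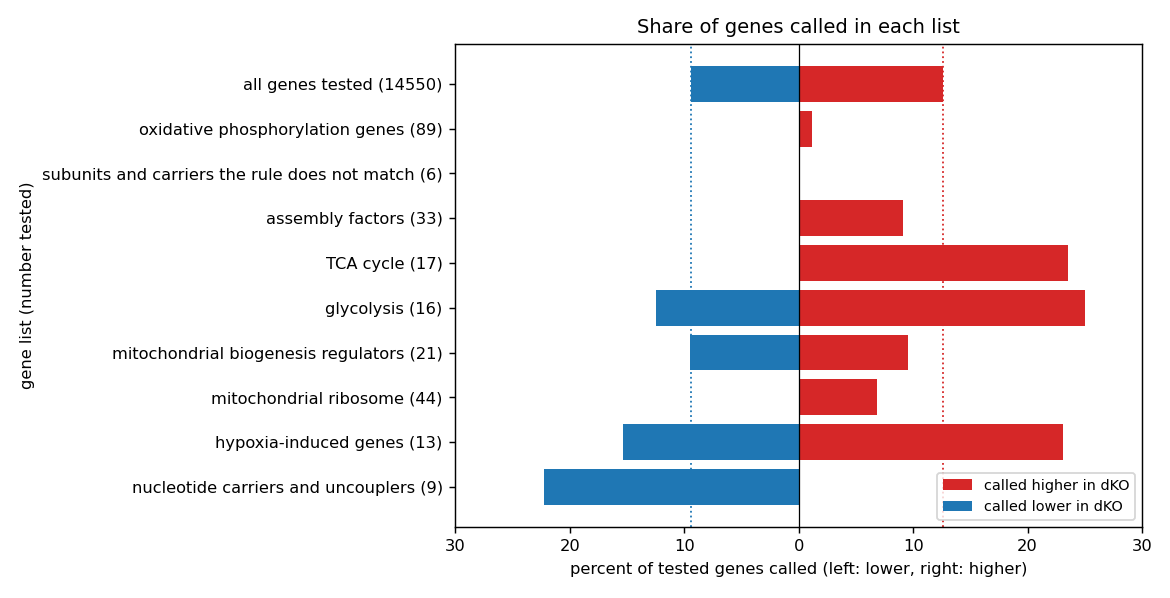
Percent of tested genes called higher (right, red) and lower (left, blue) in dKO nerves in each gene list, with the number tested in brackets. Dotted lines carry the shares over all genes, 12.6% higher and 9.38% lower, down the plot. The oxidative phosphorylation genes show 1.12%, while 23.5% of citric acid cycle genes are called higher.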

How the data were processed

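Total RNA of 6 sciatic nerve samples was hybridised to Affymetrix whole-genome mouse arrays. The authors deposited log2 values per probe set, with GCOS 1.2 and GCRMA named in the submitters' processing notes and no settings given in the sources used here. That the deposited values are log2 follows from their range (1.66 to 14.94). All arrays had the same distribution, with a median of 5.77, so a shift common to all genes is not visible in these values. Of 45101 probe sets, 34958 carried 1 symbol, 932 more than 1, and 9211 none in the annotation used here. Gene IDs served to update symbols through RefSeq (GRCm38.p6). The probe set with the highest mean over the 6 arrays stood for a gene, and genes with a value of at least 4 on at least 3 arrays were tested (14550 of 18194).

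Groups came from the sample titles. Changes are dKO minus control from limma 3.58.1 (lmFit, eBayes) in R 4.3.3, without covariates, with two-sided p-values adjusted by Benjamini-Hochberg over all genes tested. The fit was also run on simulated data, in which noise was independent and of the same size on all arrays of a gene. An array that stands apart, like dKO 3, was not simulated. The number of arrays limits the precision. Members and lists were chosen with earlier results of these data known. Values on every array are given for up to 4 called genes with the largest changes, the brightest probe set of each complex, the Sdh genes and isoform pairs, and for genes near the threshold, which were added after their values were seen. Of the other lists, up to 3 called genes with the largest changes are named, with a few more for context. Of the 13 listed mitochondrially encoded subunits, 0 were named on the array, and they were not analysed here. Alternatives were a limit of 6 or none, averaged probe sets, centred arrays, an intensity trend, array weights, a replicate block and each array left out.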

Additional observations from a re-analysis of the deposited data

How the results depend on the processing

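Cox6b2 was called higher under all 13 alternatives, with a log2 change of 2.37 to 2.75 (adjusted p = 0.000143 to 0.00221). The number of oxidative phosphorylation genes called higher was 1, and it was 2 with an intensity trend (Ndufa1, adjusted p = 0.0228) and with array weights (Ndufaf2, adjusted p = 0.0390). The number called lower was 0. It was 1 with probe sets averaged (Ndufs8, adjusted p = 0.0378), 1 with centred arrays (Ndufaf3, adjusted p = 0.0345), 3 with array weights (Ndufaf3, Ndufaf7 and Ndufs8), and 0 to 1 with 1 array left out (1 without dKO 3). Over all genes, 1365 were called lower and 891 to 1331 with 1 array left out, the fewest without control 2. The median change of complex V was 0.05, and -0.03 with centred arrays, which lowers all changes. The medians of all 89 genes and of complexes I to IV moved by less than the SD between dKO arrays under every alternative. The sign of the change was the same in all alternatives for 50 of the 89 genes, and of the 39 others 0 were called. Among assembly factors, Sco1 lost its call under 7 alternatives, Atpaf1 under 9 and Sdhaf3 under 3, and the cause was not tested.

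With the replicate block, 2557 of 14550 genes were called against 3198 without it, and the same 1 oxidative phosphorylation gene was called higher and 0 lower. Same-numbered arrays did not deviate together (r = 0.0395, -0.122 and -0.235 across genes), so the numbers are not read as pairs. All intervals rest on 3 arrays a group.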

Other observations

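Glycolysis makes pyruvate from glucose in the cytosol. Of 16 of its genes tested, 4 were higher and 2 lower in dKO nerves (37.5% called, against 22.0% of all genes), with a median log2 change of 0.35 and 3 to 4 called higher with any 1 array left out. Pfkp, the platelet type of phosphofructokinase, was at 8.48, 8.35 and 8.32 on control arrays and at 10.07, 10.14 and 10.23 on dKO arrays (log2 change 1.76, SE 0.13, limma adjusted p = 0.000184). Pkm, pyruvate kinase, rose by 0.99 (SE 0.15, adjusted p = 0.00291). Aldoc, an aldolase known from brain, went from 6.33, 5.71 and 5.75 to 4.61, 4.65 and 5.11 (log2 change -1.14, SE 0.22, adjusted p = 0.00768). The lactate dehydrogenase gene Ldhb fell by 0.95 (SE 0.14), while Ldha had a log2 change of 0.35 (SE 0.13) that did not pass the test.

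Of 13 genes known to be induced by low oxygen, 3 were higher and 2 lower (38.5% called, against 22.0% of all genes), and these counts were the same whichever array was left out. Pdk1, the kinase that restrains pyruvate entry into the citric acid cycle, went from 7.22, 7.22 and 7.50 on control arrays to 8.72, 8.89 and 9.12 on dKO arrays (log2 change 1.59, SE 0.16, limma adjusted p = 0.000499). Ddit4, an inhibitor of mTOR signalling, rose by 1.25 (SE 0.23, adjusted p = 0.00583). Bnip3, a mitophagy receptor gene, went from 9.36, 9.13 and 9.19 to 7.64, 7.85 and 8.23 (log2 change -1.32, SE 0.18, adjusted p = 0.00163). Of 9 tested genes for carriers, channels and uncouplers of the mitochondrial membranes, 0 were higher and 2 lower, a share of 22.2% that is near the 22.0% of all genes (1 lower without any array other than control 1). Vdac2, an outer membrane channel gene, was at 12.73, 12.76 and 12.75 on control arrays and at 12.12, 12.14 and 11.99 on dKO arrays (log2 change -0.66, SE 0.13). The other was the uncoupling protein gene Ucp3 (log2 change -0.53, SE 0.15). The ATP and ADP exchangers Slc25a4 and Slc25a5 had log2 changes of 0.41 (SE 0.14) and 0.04 (SE 0.13), neither past the test.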
